A study of Homo sapiens with 2 samples.

Results

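Replication-dependent histone genes encode the core histones H2A, H2B, H3 and H4 and the linker histone H1 that package newly made DNA. They were taken by symbol: every gene of the RefSeq gene table named H1-1 to H1-6, H2AC, H2BC, H3C or H4C with a number. Of 69 such genes, 42 had at least 1 probe set that the platform annotation pairs with that symbol alone, out of 19775 genes measured that way. A further 19 genes were covered only by probe sets that carry several symbols, and 8 had no named probe set. The members were read by 48 probe sets with 1 symbol and 20 with several, and these are kept apart because a probe set with several symbols cannot be assigned to a gene.

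The samples were U251 cells, an established human glioma line, grown in DMEM with serum. The control group is 1 array of cells transfected with a control, and the miR-31 group is 1 array of cells transfected with the microRNA miR-31 to over-express it. Both carry the same cell line background, and the labels give neither the construct, nor whether a clone was used, nor the time of harvest. The RefSeq microRNA table (GRCh38.p14) lists the mature form below at chr9:21512158-21512178 on the minus strand, shown because it is the agent that differs between the groups, with the seed (bases 2 to 8) in capitals. The labels do not say which arm was used.
hsa-miR-31-5p: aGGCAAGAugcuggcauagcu
Total RNA was measured on the Affymetrix HG-U133_Plus_2 array, whose probe sets lie near transcript 3' ends. Each group has 1 array, so no difference here has a replicate check, no p-value was computed, and the number of arrays limits the precision.

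Histone genes of this class are switched on in S phase, when chromatin has to be built on the copied DNA. Their messages have no introns and normally end in a conserved stem-loop instead of a poly(A) tail. SLBP binds this stem-loop, the U7 snRNP and the CPSF nuclease cut the message behind it, and the messages decay quickly when replication stops. Some of these genes also make transcripts with a poly(A) tail, known mainly from cells that leave the cycle or differentiate. Labelling kits of the 3' IVT kind prime on poly(A) tails, so stem-loop transcripts are read poorly, and a value here describes mainly the polyadenylated transcripts of a gene. What share of each message carried a tail in these cells was not measured.

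Differences are given on the log2(intensity + 16) scale as miR-31 minus control, which understates changes of dim probe sets. A gene is represented by its brightest single-symbol probe set and counts as higher or lower if it reached 2-fold on that scale. It is called dim if its mean level over both arrays lay under 62.7, the median intensity level of all probe sets. For genes with exactly 2 probe sets at or above that level, the SD of their log2 ratios was 0.33 per probe set (3142 genes), and for genes with exactly 2 dim probe sets it was 0.71 (2647 genes). These SDs cover disagreement between probe sets and leave out differences between cultures. Glioma-line markers were present at or above the level for 7 of 8 genes, with S100B dim, and of 5 measured markers of other cell types only PECAM1 was, with 121 in control cells and 124 with miR-31. PTPRC, AIF1, CD3E and EPCAM were dim.

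The promoters of the histone members at the centre of the results are shown, with short elements typical of this class marked where present. The RefSeq promoter table (GRCh38.p14) held 64 of the 69 genes, and the first listed start of each was used. In the 250 bases before the start, on either strand, the letters CCAAT were found in 84.4% of the histone promoters and in 32.0% of all 35116 promoters in the table. TATAAA was found in 65.6% and 10.7%, and ATTTGCAT, the octamer known from H2B promoters, in 40.6% and 1.63%. The 160 bases before the start follow for the 3 members at or above the level that reached 2-fold, and for H2AC17, which lay slightly below 0. Capitals mark these 3 motifs or their reverse complements, and a base may belong to matches of more than 1 motif. Each is written 5′ to 3′ on the gene's strand, H2AC6 at chr6:26124012-26124171 on the plus strand, H1-2 at chr6:26056471-26056630, H2AC25 at chr1:228457874-228458033 and H2AC17 at chr6:27893186-27893345 on the minus strand.
H2AC6: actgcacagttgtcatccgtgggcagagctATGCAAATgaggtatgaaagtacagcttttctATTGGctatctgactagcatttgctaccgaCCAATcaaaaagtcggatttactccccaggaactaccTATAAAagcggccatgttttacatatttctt
H1-2: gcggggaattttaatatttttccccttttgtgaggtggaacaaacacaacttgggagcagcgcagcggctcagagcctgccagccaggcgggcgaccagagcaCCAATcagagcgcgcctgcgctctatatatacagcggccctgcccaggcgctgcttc
H2AC25: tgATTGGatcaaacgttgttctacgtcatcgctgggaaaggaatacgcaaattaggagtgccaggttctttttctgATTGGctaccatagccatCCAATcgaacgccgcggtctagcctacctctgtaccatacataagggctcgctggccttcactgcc
H2AC17: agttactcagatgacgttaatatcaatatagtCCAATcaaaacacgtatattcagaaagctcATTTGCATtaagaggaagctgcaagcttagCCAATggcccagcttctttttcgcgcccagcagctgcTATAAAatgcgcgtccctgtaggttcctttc
All 4 stretches hold CCAAT or its reverse complement. H2AC6 and H2AC17 both hold all 3 motifs, although their ratios were 2.23 and -0.19. H1-2 and H2AC25 held neither TATAAA nor ATTTGCAT in the 250 bases before the start. A match of letters describes the window and is no measured binding site.

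A few histone genes at or above the level, led by H2AC6, H1-2 and H2AC25, were higher in the miR-31 array, while most histone genes were dim. These 3 were higher by 1.35 to 2.23 on the log2 scale, against a probe set SD of 0.33 that leaves out differences between cultures. Of the 42 members, 10 were at or above the level and 32 were dim. All of the 10 lay above an intensity of 62.7 on both arrays, so none was kept through 1 array alone. Of the 42 members, 7 were at least 2-fold higher and 0 at least 2-fold lower, with a median log2 ratio of 0.25. Over all genes, 5.99% were at least 2-fold higher and 5.07% at least 2-fold lower, with a median of 0.01. Of the 10 members at or above the level, 3 were at least 2-fold higher and 8 had a ratio above 0, with a median of 0.83. Among all genes at or above the level, 3.74% were at least 2-fold higher, 1.58% at least 2-fold lower and the median was 0.03. Of the 32 dim members 4 were at least 2-fold higher and 0 lower, with 15 above 0 and a median of -0.02, where 9.3% of all dim genes were higher and 10.2% lower. With these few members, the dim ones are described and nothing is read from their count. When ratios were centred on the poly-A spike-ins, which shifts every gene by 0.55 downward, the median of the 42 members was -0.30 and that of all genes -0.54, and 6 of the 10 stayed above 0. H2AC6 then had 1.68, while H1-2 (0.90) and H2AC25 (0.80) were no longer past 2-fold. The count of 7 higher members was 11 with a pseudocount of 1 and 4 with a pseudocount of 64, because the dim members have small intensities. The share over all genes at these pseudocounts was not computed.

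**Figure D1:**
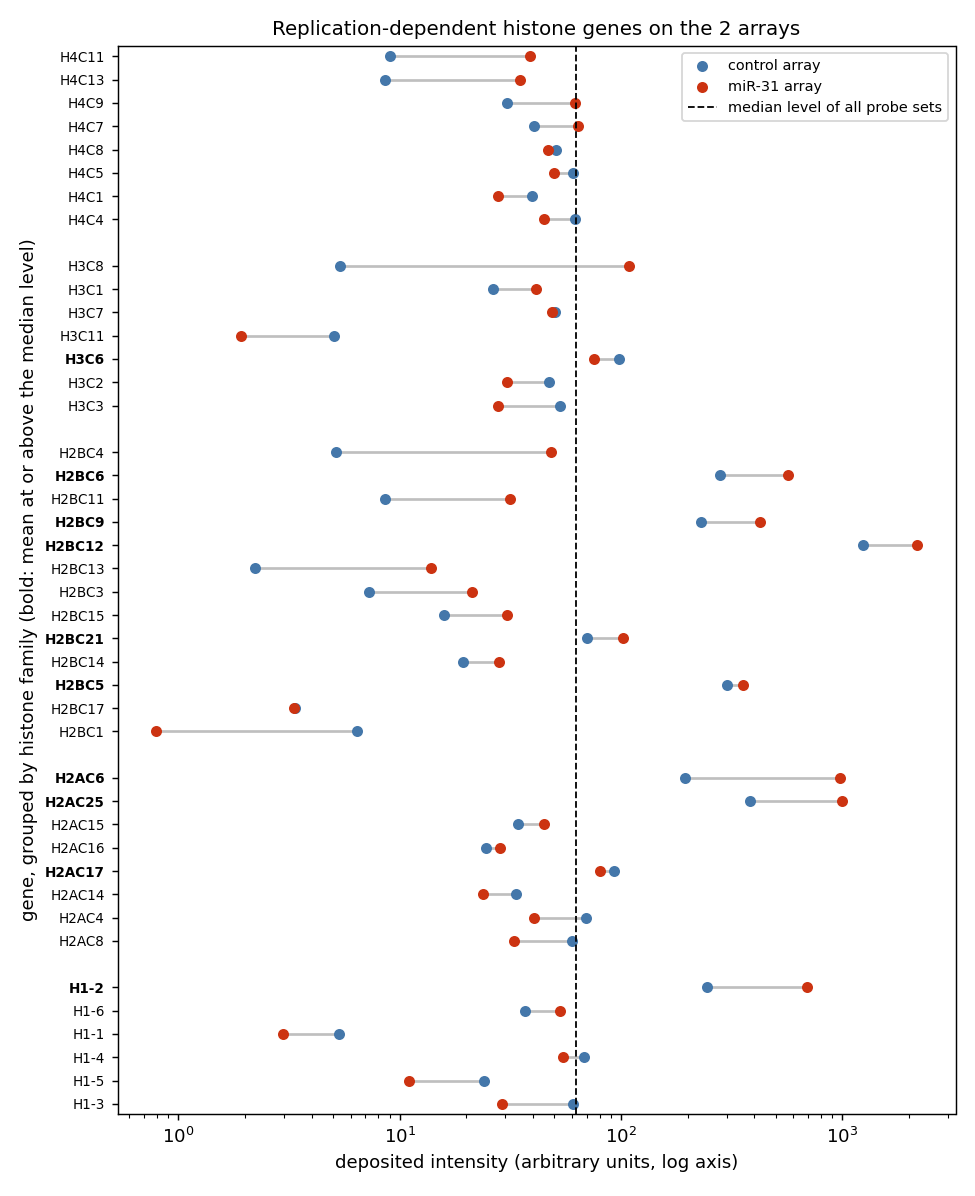
Deposited intensity of each of the 42 single-symbol histone genes on the control array (blue) and the miR-31 array (red), on a log axis, grouped by family, with the median level of all probe sets as a dashed line. The 10 genes in bold lie to the right of the line on both arrays, and the widest gaps on that side belong to H2AC6 (195 and 971), H1-2 (244 and 693) and H2AC25 (380 and 997).

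Among the H2A genes, which encode a core histone that pairs with H2B, H2AC6 (older symbol HIST1H2AC) stood at 195 in control cells and 971 with miR-31. Its log2 ratio was 2.23, read by probe set 215071_s_at alone, and it lay between 1.68 and 2.31 under the 9 alternative settings that kept this probe set. Leaving out _s_at and _x_at probe sets removes it, so that setting gives no value. H2AC25 (HIST3H2A), an H2A gene outside the large cluster, had 380 in control cells and 997 with miR-31, a log2 ratio of 1.35 on probe set 221582_at. Its other probe set, 231681_x_at, was dim and went the other way, with 33.0 and 19.3 and a ratio of -0.47, so the mean of both probe sets was 0.44. H2AC17 had 93.1 and 79.9, a ratio of -0.19. The 5 dim H2A genes had ratios between -0.64 and 0.27, with H2AC8 lowest at 59.9 and 32.8.

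The H2A genes were uneven: 4 of 8 measured were above 0 and 4 below, and the family median was -0.03. On their brightest probe sets H2AC6 and H2AC25, both at or above the level, were far above the others. H2AC6 rests on a single _s_at probe set, and the dim second probe set of H2AC25 had -0.47.

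The linker histone genes showed the same unevenness. H1-2 (HIST1H1C), which encodes an H1 that is common in somatic cells and binds DNA between nucleosomes, had 244 in control cells and 693 with miR-31, a log2 ratio of 1.45 on its only probe set, 209398_at. The other 5 H1 genes were dim. Of these, the somatic linker genes H1-3 (60.9 and 29.1, ratio -0.77), H1-5 (24.1 and 10.96, ratio -0.57) and H1-4 (67.7 and 54.6, ratio -0.24) were all below 0. The testis gene H1-6 had 36.6 and 53.0 on one probe set (0.39) and 47.7 and 5.20 on another (-1.59), so its probe sets disagree in sign. H1-1 was near the bottom of the scale on both arrays, with 5.32 and 2.96. The median over the 6 H1 genes was -0.21.

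H2B genes, whose product pairs with H2A in the nucleosome, leaned most to the high side. Of 13 measured, 11 had ratios above 0 and the family median was 0.68, although only 1 reached 2-fold and 8 were dim. After centring on the poly-A controls 8 of the 13 were above 0 and the median was 0.12. H2BC12 (HIST1H2BK) had 1241 in control cells and 2182 with miR-31, or 0.81 on the log2 scale. H2BC6 had 279 and 566 (0.98), just short of 2-fold on this scale, and H2BC9 had 229 and 425 (0.85). H2BC5 had 301 and 355 on one probe set (0.23) and 199 and 351 on another (0.77). H2BC21 (HIST2H2BE) had 70.4 and 102 (0.45). All 5 H2B genes at or above the level were thus higher in the miR-31 array on the deposited scale, by 0.23 to 0.98, while H2BC5 (-0.32) and H2BC21 (-0.10) lay below 0 with the poly-A centring, where the median of all genes was -0.54. H2BC5, H2BC6 and H2BC9 are read by _x_at probe sets, whose probes can match other sequences, so these near-identical genes are not independent readings.

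The dim H2B genes included H2BC4, the neighbour of H2AC6, with 5.15 in control cells and 48.1 with miR-31 (1.60), and H2BC11 with 8.56 and 31.4 (0.95). The testis gene H2BC1 was lowest, with 6.44 and 0.79 (-0.42). Ratios of intensities this low depend on the pseudocount: H2BC4 had 3.00 with a pseudocount of 1 and 0.70 with 64.

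H3 and H4 genes, which form the tetramer at the centre of the nucleosome, were nearly all dim on single-symbol probe sets. No H4 gene and only 1 H3 gene, H3C6, was at or above the level. H3C6 had 97.6 in control cells and 75.5 with miR-31 (-0.31), while its dim second probe set had 4.22 and 65.3 (2.01). Of the dim genes, H3C8 had 5.36 and 109 (2.55), H4C11 had 9.04 and 38.9 (1.13) and H4C13 had 8.56 and 35.1 (1.06). These 3 had control intensities near the bottom of the scale, and together with H2BC4 they make up the dim members past 2-fold. The other dim H3 and H4 genes had ratios between -0.66 and 0.74. Of 7 H3 genes 2 were above 0 (median -0.23), and of 8 H4 genes 4 were (median 0.20, which was -0.35 with the poly-A centring).

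**Figure D2:**
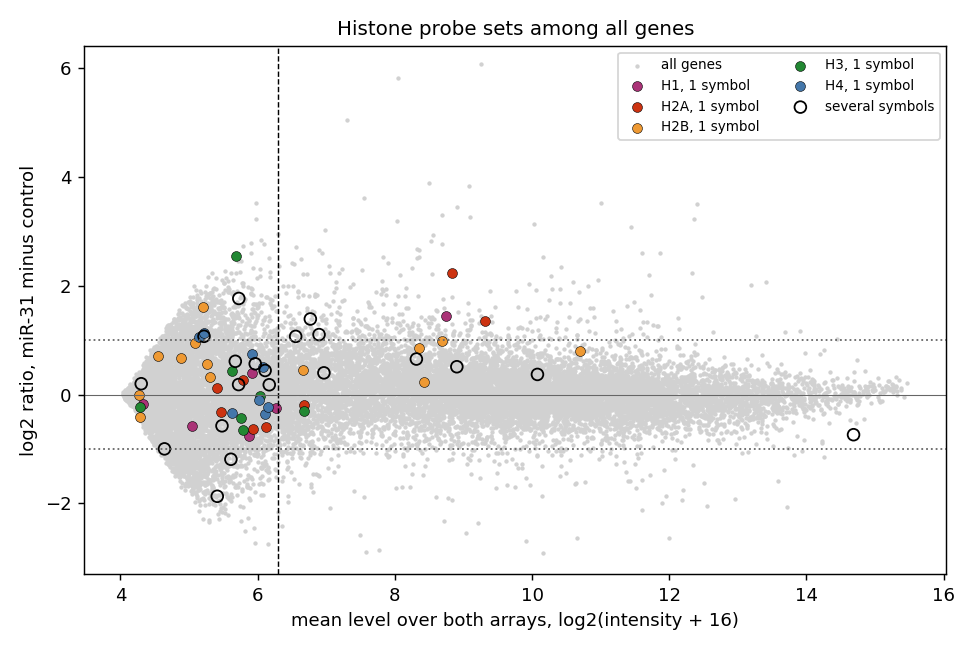
Log2 ratio (miR-31 minus control) against the mean level over both arrays, log2(intensity + 16), for all genes (grey), the 42 single-symbol histone genes (filled, by family) and the 20 histone probe sets with several symbols (open rings); the dashed line is the median level and the dotted lines mark 2-fold. H2AC6 (2.23), H1-2 (1.45) and H2AC25 (1.35) stand above the upper dotted line to the right of the dashed line, and the ring at the far right is the H4 probe set at -0.74.

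Probe sets with several symbols read groups of near-identical histone genes, and here 15 of 20 had ratios above 0, with a median of 0.42. Over all 1801 probe sets with several symbols, 966 were above 0 and the median was 0.04. Many of the 20 are paired with the same genes as another, so they are not independent readings. The count past 2-fold was 5 on the high side and 2 on the low side, where 6% and 3.89% of all 1801 probe sets with several symbols were. With the poly-A centring, which moves every probe set down alike, 8 of the 20 were above 0 and the median was -0.13, where 15.9% of all genes were above 0 and their median was -0.54. Of the 20, 12 were dim. The count of 5 was 3 after quantile normalization, 2 when centred on the hybridisation controls and 0 with a pseudocount of 64. Over all genes 5.54% were at least 2-fold higher after quantile normalization and 3.72% when centred on the hybridisation controls. The share with a pseudocount of 64 was not computed.

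An H4 probe set with a strong signal was lower in the miR-31 array. This probe set, 205967_at, is paired with 14 H4 genes and had 34045 in control cells and 20403 with miR-31, a log2 ratio of -0.74 that stayed between -1.29 and -0.67 under the 9 alternative settings that apply to a single probe set. The same 14 symbols are paired with 4 further probe sets, which had 49.0 and 120 (1.07, probe set 207046_at), 25.4 and 47.1 (0.61, dim), 57.8 and 16.4 (-1.19, dim) and 19.3 and 1.67 (dim, just short of 2-fold lower). The 5 probe sets thus disagree in sign, 3 of them are dim and 207046_at was under the level in control cells. The annotation does not say which H4 gene each one follows, and what the disagreement comes from was not tested.

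Probe sets for H2A and H2B groups at or above the level were on the high side. Probe set 214290_s_at, paired with H2AC18 and H2AC19, had 936 in control cells and 1213 with miR-31 (0.37), and 218280_x_at, paired with the same genes, had 386 and 556 (0.51). The remaining probe set of that pair, 218279_s_at, was dim, with 65.4 and 6.28 (-1.87). A group of 6 H2A genes had 65.3 and 158 on 207156_at (1.10), and on the dim 214542_x_at it had 12.7 and 81.5 (1.76). The group of 5 H2B genes that includes H2BC4 and H2BC6 had 238 and 383 on 208490_x_at (0.65) and 93.0 and 128 on 208523_x_at (0.40). The pair of H2BC11 and H2BC8 had 9.71 and 37.9 on the dim 210387_at (1.07). A group of 10 H3 genes had 51.4 and 160 on 206110_at (1.39), which was under the level in control cells. The dim 214646_at, paired with the same 10 genes, had only 2.44 and 5.15 (0.20). Of these, 214290_s_at, 218280_x_at and 208523_x_at lay below 0 with the poly-A centring, at -0.18, -0.04 and -0.15, against a median of -0.54 over all genes.

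Polyadenylated transcripts have been reported for a subset of replication-dependent histone genes, and 8 of the 11 on such a list had a single-symbol probe set: H1-2, H2AC6, H2BC4, H2BC5, H2BC11, H2BC12, H2BC21 and H4C8. This list was drawn up with earlier results of these arrays known, so it is a description and not independent evidence. Its members had a median log2 ratio of 0.88, with 7 of 8 above 0 and 3 at least 2-fold higher. Over all genes 50.8% were above 0 and 5.99% at least 2-fold higher. H4C8 was the exception, dim at 51.1 in control cells and 46.7 with miR-31 (-0.10). The remaining 34 members had a median of -0.02, with 16 above 0 and 4 at least 2-fold higher. The lists differ in level, since 5 of the 8 and 5 of the 34 were at or above the level. Among those, the medians were 0.81 and 0.85, so the gap between the lists was not seen among the better-measured genes. The part that level plays in the gap was not tested further.

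**Figure D3:**
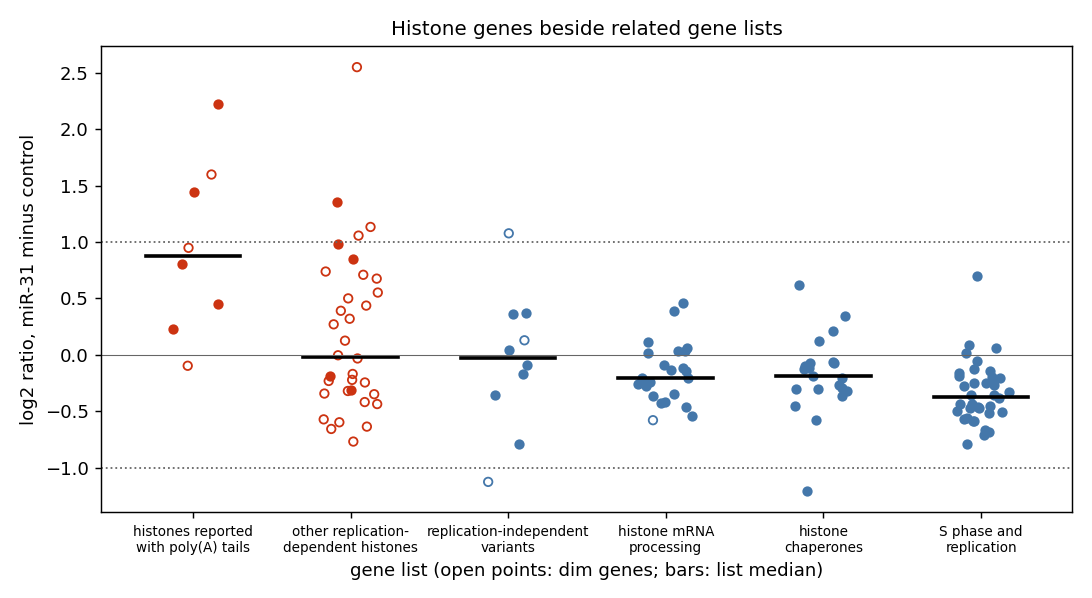
Log2 ratios (miR-31 minus control) of single genes in 6 lists, with filled points for genes at or above the level, open points for dim genes, bars for list medians and dotted lines at 2-fold. The histones reported with poly(A) tails have a median of 0.88 and the other replication-dependent histones -0.02, while the S phase and replication genes have -0.37.

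The histone variants listed as replication-independent lay on both sides of 0. Of 14 listed, 10 were measured and their median was -0.03 (between -0.58 and 0.13 under the alternative settings, so without a settled direction), with 5 above 0 and 5 below. Of the 7 at or above the level 0 reached 2-fold, where 3.74% of all genes at or above the level were at least 2-fold higher and 1.58% lower, so this count says little. CENPA, the H3 variant of centromeres, had 2993 in control cells and 1720 with miR-31 (-0.79). H3-3A, which encodes the H3.3 variant, had 352 and 459 (0.37), and H1-10 had 1761 and 2266 (0.36). H2AX, whose product marks DNA breaks when phosphorylated, had 10150 and 7932 (-0.36). H2AZ1, a variant at gene starts, had 28199 and 26445 (-0.09). Only dim variants passed 2-fold, H2AJ upward (30.7 and 82.6, ratio 1.08) and MACROH2A2 downward (78.0 and 27.1, ratio -1.13).

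Genes that switch on histone genes and form or remove their mRNA 3' ends showed small differences, mostly downward. Of 25 symbols listed, among which ARS2 and SRRT name the same gene, 23 genes were measured. Of these, 16 were below 0, the median was -0.21 (between -0.76 and -0.13 under the alternative settings) and 0 reached 2-fold. Among all genes at or above the level, where 22 of the 23 lay, 3.74% were at least 2-fold higher and 1.58% lower. This count of 0 therefore says little. SLBP, the stem-loop binding protein, had 7099 in control cells and 7186 with miR-31 (0.02). NPAT, the histone gene coactivator that cyclin E-CDK2 acts on, had 859 and 790 (-0.12), and LSM11, a U7 snRNP protein, had 741 and 670 (-0.14). Other LSM11 probe sets had 0.24, -0.16 and -0.69. The largest values at or above the level were those of SNRPB (-0.54), TUT7, a uridylyl transferase of histone mRNA decay (0.46), ZNF473 (-0.46) and SRRT, a partner of the nuclear cap-binding complex (-0.42). A weaker SRRT probe set, 201679_at, went the other way, with 26.5 in control cells and 150 with miR-31 (1.97). Of the other SRRT probe sets, 201680_x_at (-0.20) and 222046_at (-0.30) were below 0 and a dim one had 0.05.

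Histone chaperones, which carry and deposit new histones, were also mostly lower by small amounts. All 21 were measured at or above the level, 17 were below 0 and the median was -0.19 (between -0.74 and -0.09 under the alternative settings). HIRA, which deposits H3.3 outside replication, was the only one past 2-fold, with 892 in control cells and 377 with miR-31 (-1.21). Its dim second probe set had -0.39. Among all genes at or above the level 3.74% were at least 2-fold higher and 1.58% lower. The count takes the brightest probe set of each gene: NAP1L4 had -0.10 on that one, and 28.3 and 196 (2.25) on the weaker 1556567_at. CABIN1, a partner of HIRA, had 247 and 387 (0.62), SSRP1, a subunit of the FACT complex, had 4646 and 3098 (-0.58), and HJURP, the chaperone of CENPA, had 3126 and 2282 (-0.45). NASP, which holds the soluble H3-H4 pool, had 5863 and 4763 (-0.30), while its other probe sets had 0.10 and 0.17. CHAF1A, which deposits H3-H4 behind the replication fork, had 1413 and 1147 (-0.30). Its other probe sets had 0.28, -0.59 and, on a dim one, 0.17. The probe sets of both genes thus disagree in sign.

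S phase and replication genes, which replication-dependent histone synthesis normally accompanies, were lower in the miR-31 array, unlike H2AC6, H1-2 and H2AC25. Of 37 listed, 36 were measured, 32 were below 0, the median was -0.37 (between -0.92 and -0.25 under the alternative settings) and 0 reached 2-fold. Among all genes at or above the level 3.74% were at least 2-fold higher and 1.58% lower, so a count of 0 says little. MCM10 had -0.52 on its brightest probe set and 943 and 413 (-1.16) on another. GINS4, a helicase subunit, had 1000 in control cells and 571 with miR-31 (-0.79), CDC45 had 1152 and 698 (-0.71) and MCM2 had 3155 and 1955 (-0.69). E2F1 had 310 and 512 (0.70) on one probe set and 294 and 217 on another. The H4 probe set 205967_at, at -0.74, lay on the side of the replication genes. Of the other probe sets paired with the same 14 genes, 207046_at (1.07) and 208580_x_at (0.61, dim) were higher. The dim 214516_at (-1.19) and 208181_at were lower. In bulk RNA a changed share of cells in S phase and a changed amount of histone mRNA per cell cannot be told apart.

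Most of these genes sit on chromosome 6, where the largest human histone gene cluster lies: 55 of the 69 genes and 40 of the 42 measured. In the order along the chromosome, H1-2 (1.45), H1-6 (0.39, dim), H2BC4 (1.60, dim) and H2AC6 (2.23) followed each other among the measured genes, and all were above 0. The other H1-6 probe set, also dim, had -1.59, so the unbroken run depends on using the brightest probe set. The measured genes on either side of this run were H3C3 (-0.66, dim) and H1-4 (-0.24, dim). A second run above 0 was formed by H2BC11 (0.95, dim), H2BC12 (0.81), H4C9 (0.74, dim) and H2BC13 (0.71, dim). A longer run, made only of dim genes, held H2BC14 (0.32), H4C11 (1.13), H2AC15 (0.27), H2BC15 (0.55) and H2AC16 (0.13). Of all 42 measured members 23 were above 0. The runs were picked out after their values were seen.

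Many H2A and H2B genes are arranged head to head, with starts a short distance apart and a shared stretch of promoter between them. The promoter table gave 12 such pairs of neighbouring histone genes with starts under 1000 bases apart, among them H3C7 with H2BC9 at 979 bases, and both genes had a single-symbol probe set in 5. The starts of H2BC4 and H2AC6 were 246 bases apart, so the H2AC6 stretch printed above, with its octamer and CCAAT letters, lies between both genes. Of the 5 pairs, 2 were above 0 on both sides, H2BC4 with H2AC6 and H2AC15 with H2BC15 (0.27 and 0.55), 1 was below 0 on both, and 2 had opposite signs. In each of the 5 pairs at least 1 gene was dim, so these signs describe the values and no more.

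**Figure D4:**
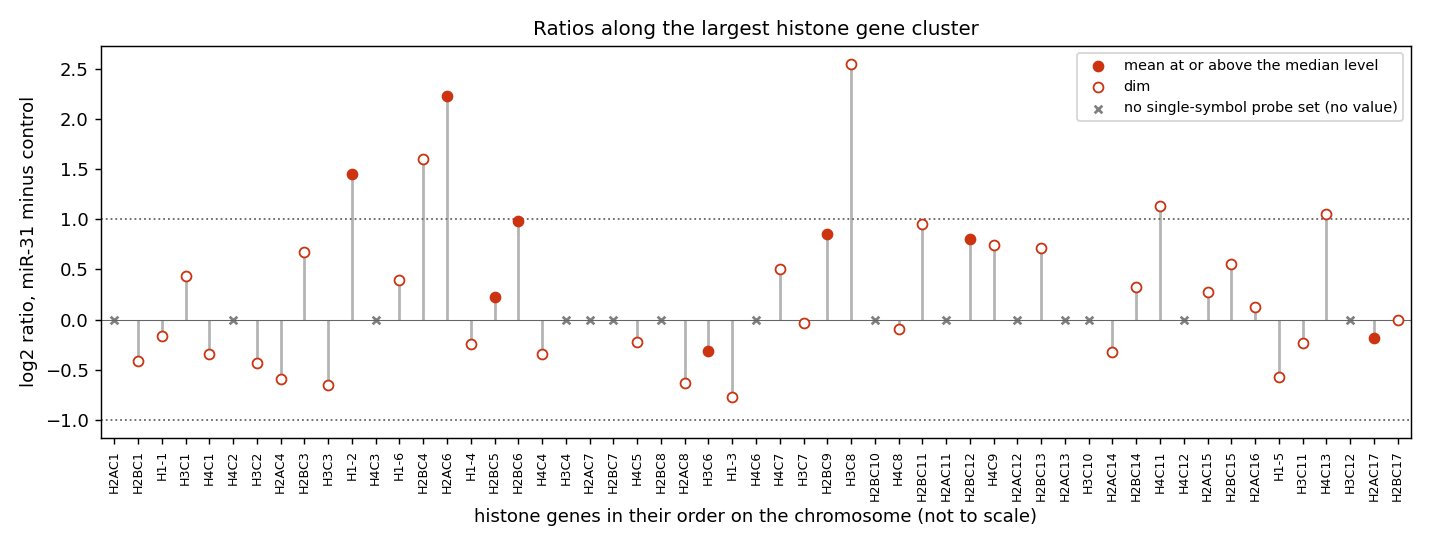
Log2 ratio (miR-31 minus control) of the single-symbol histone genes in their order along the chromosome 6 cluster, not to scale, with filled points for genes at or above the level, open points for dim genes and crosses for genes without a single-symbol probe set. H1-2 (1.45), H1-6 (0.39, dim), H2BC4 (1.60, dim) and H2AC6 (2.23) are consecutive measured genes above 0, and H3C8 (2.55, dim) lies further along the order. Each gene is drawn by its brightest probe set, and the other H1-6 probe set had -1.59.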

How the data were processed

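The deposited table gives a linear intensity for each of 54675 probe sets on 2 arrays. How the authors summarised probes into these values is not stated in the sources used here. From the values, the mean intensity after trimming 2 percent of probe sets at each end was 500.1 on both arrays, so the arrays had been scaled to a common level. Per the labels' protocols, trizol was used for the RNA and a 3' IVT kit for biotin labelling.

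Symbols came from the platform annotation supplied with the data, and all 42 members matched the RefSeq gene table by Entrez identifier. The 62 control probe sets were left out of the genes. Members and lists were chosen with earlier results of these data known. Named were all members at or above the level or past 2-fold, probe sets with several symbols likewise, and up to 4 members of each comparison list with the largest absolute ratio at or above the level. Other genes were chosen after their values were seen. Among the members these were the dim H1 genes, H2BC1, H2BC11, H2BC13, H2BC14, H2BC15, H2AC8, H2AC15, H2AC16, H3C3, H3C7, H4C8 and H4C9. The others were H2AZ1, the dim variants, SLBP, NPAT, LSM11, NASP, CHAF1A, NAP1L4 and MCM10. The dim probe sets 208580_x_at, 208181_at and 214646_at were also chosen this way. The alternatives were 5 other scalings, pseudocounts of 1 and 64, a level filter, the mean of probe sets, leaving out _s_at and _x_at probe sets and a threshold of 1.5-fold. The calculation was tested on simulated data with the same noise at every level. That test does not cover the wider spread of dim probe sets (SD 0.71). Python 3.11.15, numpy 2.4.6, pandas 2.3.3, statsmodels 0.14.6 and matplotlib 3.10.9 were used.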

Additional observations from a re-analysis of the deposited data

How the results depend on the processing

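No paired analysis was possible because there is only 1 array per group. For the same reason none could be omitted in turn. A median counts as moved when it changed by at least the probe set SD of 0.33, and a count when it changed by over 1.5 times. Centring on the poly-A controls gave medians of -0.30 for the members, -0.13 for the probe sets with several symbols, 0.33 for the histones reported with poly(A) tails, -0.58 for the variants, -0.76 for mRNA processing, -0.74 for chaperones and -0.92 for S phase genes, and family medians of -0.76 (H1), -0.58 (H2A), 0.12 (H2B), -0.78 (H3) and -0.35 (H4). The same centring left 3 members at least 2-fold higher and 5 lower, and 1 probe set with several symbols higher, where 1.53% of all genes were higher and 16.9% lower. Of the members, 7 were at least 2-fold higher on the deposited scale, against 11 with a pseudocount of 1, 4 with 64, 3 with the level filter, 4 without _s_at and _x_at probe sets and 14 at 1.5-fold. The number at least 2-fold lower, 0, became 4 with a pseudocount of 1 and 4 at 1.5-fold. Over all genes 5.99% were higher on the deposited scale, and 3.74% with the level filter. The shares for the other pseudocounts, for 1.5-fold and without _s_at and _x_at probe sets were not computed. The counts there show only how the number depends on the setting. Of the probe sets with several symbols, 3 were higher with quantile normalization, with the loess trend removed and with the level filter, 2 when centred on the hybridisation controls and 0 with a pseudocount of 64. Over all genes 5.54% were higher with quantile normalization, 5.67% with the loess trend removed and 3.72% when centred on the hybridisation controls. The level filter gave medians of 0.83 for the members, 1.45 for the 1 H1 gene and 1.35 for the 3 H2A genes left, with no H4 gene left, and a pseudocount of 64 gave 0.26 for H2B.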
